A study of Bos taurus with 3 samples.

Results

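The retina of cattle was profiled by poly(A) RNA sequencing, and 8 genes of bipolar cell signalling were examined here among the 13574 genes listed. The 8 genes were taken by symbol, as genes of the ON pathway and of calcium binding in bipolar cells: CABP5, GNG13, RGS11, PRKCA, PCP2, GPR179, LRIT3 and SCGN. All 8 were present in the table. The study holds 1 group of 3 libraries from retinas of cattle of mixed strain, dissected between 7 and 10 in the morning. Each library was prepared from pooled total RNA, so a library stands for no single animal, and the labels give neither age nor sex. With 1 group there was no contrast between conditions. The labels do not say whether different animals stand behind the 3 libraries, so each SD measures only the spread among these libraries.

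Bipolar cells carry the signal of photoreceptors to the inner retina. Photoreceptors release glutamate in darkness, and the dendrites of ON bipolar cells read it with the metabotropic receptor mGluR6, which acts through the G protein Go to close the cation channel TRPM1. When light lowers glutamate, Go is switched off quickly by RGS proteins bound to the beta subunit GNB5, the channel opens and the cell depolarises. Rod bipolar cells are ON cells and are commonly recognised by protein kinase C alpha, while cone bipolar cells come in ON and OFF types, some of which carry the calcium-binding protein secretagogin.

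The values are FPKM, fragments per kilobase of gene length and scaled to the reads of the library, so levels of different genes can be set side by side. FPKM times gene length fell on whole multiples of 1 read, which gave 36656987, 39011741 and 49102476 reads as the denominators of libraries 1, 2 and 3. The 8 genes drew between 751 and 20387 reads per library, far above a floor of 3 reads, and together 39190, 36385 and 40599 reads. The libraries were not alike in their animals: XIST, which coats the inactive X in female cells, had 3987, 3 and 3628 reads in libraries 1, 2 and 3. They also differed by gene length, with the shortest genes high in library 1 and low in library 3 and the longest genes the reverse. As a check of the tissue label, all 12 measured rod genes averaged 100 FPKM or more, as did 3.81% of the listed genes. In bulk tissue, fewer cells of a type and less RNA per cell cannot be told apart.

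The 8 genes fell into 2 levels with a wide gap between them. GNG13, CABP5, RGS11 and PCP2 lay between 128 and 313 FPKM in every library, and SCGN, PRKCA, LRIT3 and GPR179 between 8.80 and 20.4 FPKM. The lowest value in the upper set was 6.29-fold above the highest value in the lower set. All 8 averaged 10 FPKM or more, a level reached by 38.4% of the listed genes, and hence also 1 FPKM, reached by 70.7%. The upper 4 averaged 100 FPKM or more, as did 3.81% of the listed genes. Together the 8 genes took 0.269% ± 0.0312 (SD, n = 3) of the summed FPKM, and the upper 4 supplied 92.8% of that share. The median over the 8 genes was 100.3 FPKM, against 5.67 FPKM over all listed genes. The median of the 8 falls in the gap between PCP2 and SCGN, so it is the level of none of them.

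**Figure D1:**
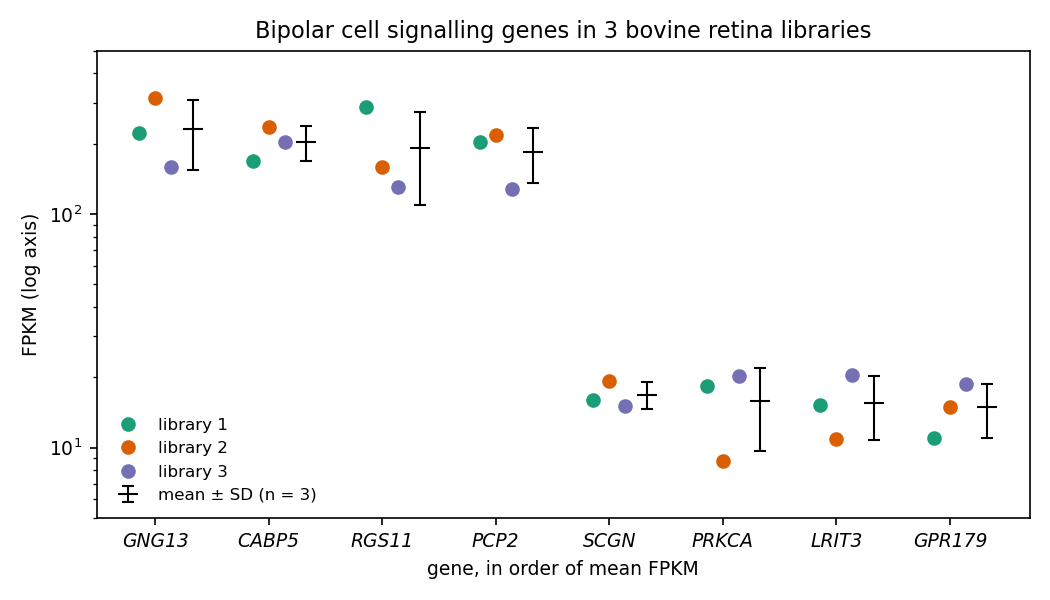
FPKM (log axis) of the 8 genes in libraries 1, 2 and 3, with the mean and SD of the 3 libraries at the right of each gene. The upper 4 genes stay at or above 128 FPKM and the lower 4 at or below 20.4 FPKM, while within each set the order of the genes changes from library to library.

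The gap between the sets was larger than the spread between libraries, and the order within each set was not. A pair of genes was called apart where all 3 libraries gave the same order and the mean difference in log2(FPKM + 1) was above 2 SD of the paired differences. By this rule 16 of the 28 pairs of genes were apart, which were the 16 pairs that join an upper and a lower gene. The 12 pairs within a set were not. The sets were drawn at the gap in these same values, so the same order in every library was given in advance for those 16 pairs. Their being apart describes the gap and is no separate support for it. Of the 7 neighbours in the order of the means, PCP2 and SCGN alone were apart, by 3.35 ± 0.30 (log2, SD, n = 3) or 10.2-fold on the scale of FPKM + 1. PCP2 was the higher in 3 of 3 libraries, and the exact two-sided sign-flip test gave p = 0.25, the smallest that this test can give with 3 libraries, so it could not pass 0.05. GNG13 stood above PCP2 in every library, but by 0.31 ± 0.20, which is under 2 SD.

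The G protein subunit of the set, GNG13, is the gamma subunit that pairs with GNB3 in mouse ON bipolar cells. It had 222, 313 and 159 FPKM in libraries 1, 2 and 3, from 1658, 2491 and 1597 reads, with a mean of 231 FPKM ± 77.2 (SD, n = 3). Library 2 was the high one and library 3 the low one, and the ratio of the 2 was 1.96 (95% exact interval for counting error 1.84 to 2.09). By mean FPKM it ranked 151 among the 13574 genes. Its gene model measures 204 bases and may hold the coding sequence alone, which was not tested. The length is a multiple of 3, as are those of PCP2, LRIT3 and GPR179 and 36.4% of all lengths listed, so this says little. The model is close to the fragment size of about 200 bp, and how this affects the FPKM of GNG13 was not tested. In the ARS-UCD2.0 assembly GNG13 overlaps CHTF18 by 37 bases, and CHTF18 had 11.1, 19.7 and 11.5 FPKM, also highest in library 2. Whether strand was used in counting is not known here, so reads in the overlap cannot be assigned.

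Among the 12 measured G protein gamma genes GNG13 ranked in place 3. The rod gene GNGT1 stood at 529 FPKM ± 205 and the cone gene GNGT2 at 267 FPKM ± 38.2 (SD, n = 3). Neither was apart from GNG13, with differences (GNG13 minus the other gene) of -1.17 ± 0.59 and -0.25 ± 0.35 on the log2(FPKM + 1) scale. GNGT1 was the higher in 3 of 3 libraries, and it was apart from GNG13 without replicate 1 and without replicate 2. GNG13 was apart from and above the other 9 gamma genes. The nearest of them was the neuronal GNG3 at 57.4 FPKM ± 8.97, 3.87-fold lower. Its partners in the ON cascade were of like size: GNB3, a beta subunit that cones also use, had 292, 422 and 323 FPKM, and GNAO1, the alpha subunit of Go, had 111, 136 and 150 FPKM. The ratio of GNG13 to GNB3 was 0.758, 0.741 and 0.493 in libraries 1, 2 and 3, and that to GNAO1 was 1.99, 2.30 and 1.06, so both ratios were lowest in library 3. Genes as short as GNG13 had a median deviation of -0.37 (log2) in library 3. Genes of the lengths of GNB3 and GNAO1 had -0.12 and -0.13 there. The part of gene length in these ratios was not tested.

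PCP2, Purkinje cell protein 2, binds Go and Gi alpha subunits through GoLoco motifs and is found in rod bipolar cells of the mouse. It had 204, 219 and 128 FPKM in libraries 1, 2 and 3, with a mean of 184 FPKM ± 48.6 (SD, n = 3) from 3063 to 4151 reads. Libraries 1 and 2 were close, at a ratio of 0.933 (95% exact counting interval 0.892 to 0.976), and library 3 was lower than both. PCP2 was the highest of the 4 measured genes with GoLoco motifs, while 3 of the 7 listed were not analysed. It stood above GPSM2, at 8.24 FPKM ± 2.29, by 19.9-fold. It stood above RAP1GAP, a GTPase activator for RAP1, by 1.57-fold, a difference that was not apart without replicate 1 or without replicate 2. RGS14 was near the floor, with 30, 8 and 18 reads. The assembly places the end of PCP2 11 bases inside PET100, a gene not analysed here.

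RGS11 and GPR179 belong to the machinery that ends the Go signal. RGS11, a GTPase activator of the R7 family that needs GNB5 as its partner, had 286, 159 and 131 FPKM in libraries 1, 2 and 3, from 20387, 12078 and 12507 reads. Its mean was 192 FPKM ± 82.5 (SD, n = 3), or 145 FPKM without replicate 1, and library 1 stood above library 3 by 2.18-fold (95% exact counting interval 2.13 to 2.23). Its SD on the log2(FPKM + 1) scale, 0.58, exceeded that of 97.8% of the 9599 genes that averaged 1 FPKM or more. The neighbours FAM234A and ARHGDIG, which lie 933 and 202 bases from RGS11 in the assembly, did not show this size of difference: FAM234A, listed as ITFG3, had 39.4, 40.4 and 35.5 FPKM and ARHGDIG 48.0, 43.5 and 31.2 FPKM. A list of pigment epithelium genes, of which 13 of 14 were measured, had the same order of libraries as RGS11, with summed levels of 84.1, 57.1 and 37.6 FPKM. Of the 11 genes of that list averaging 1 FPKM or more, 8 were highest in library 1, 1 in library 2 and 2 in library 3. In library 3, 9 of the 11 were lowest. Of the 9599 genes, 45.3% were highest in library 1 and 43.3% lowest in library 3. The list included RDH5 at 27.8, 20.8 and 16.0 FPKM, while the melanin enzyme gene TYR had 0, 0 and 1 reads. The part of such tissue in the RGS11 values was not tested.

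GNB5 itself was steady, at 142, 131 and 125 FPKM. The ratio of RGS11 to GNB5 was therefore 2.02, 1.22 and 1.05 in libraries 1, 2 and 3. Other genes of the R7 complex spanned a wide range of levels. RGS9, the photoreceptor member of the family, had 104 FPKM ± 15.1 and its anchor RGS9BP 227 FPKM ± 36.2, whereas RGS7, which acts with RGS11 in ON bipolar cells of the mouse, had 6.49 FPKM ± 0.478 and its anchor RGS7BP 5.26 FPKM ± 1.05 (SD, n = 3 for each). RGS11 exceeded RGS7 by 24.4-fold, with a log2 difference of 4.61 ± 0.50. RGS11 was not apart from RGS9, GNB5 or RGS9BP. Without replicate 3 it was apart from RGS9.

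GPR179, an orphan receptor that holds RGS7 and RGS11 at the dendritic tips of ON bipolar cells, had 11.0, 14.9 and 18.7 FPKM in libraries 1, 2 and 3. Library 1 was the low one and library 3 the high one, with a ratio of 1.70 (95% exact counting interval 1.63 to 1.78), and the mean was 14.9 FPKM ± 3.85 (SD, n = 3). Its model, at 7065 bases, is the longest of the 8. GPR179 stood above its relative GPR158 by 1.12 ± 0.08 on the log2(FPKM + 1) scale, or 2.18-fold, and this ratio hardly moved between libraries although GPR158 itself had 4.37, 6.05 and 8.62 FPKM. GPR179 also stood above RGS7, by 2.08-fold, which was not apart without replicate 2, and above RGS7BP, by 2.51-fold. It lay below RGS11, RGS9, GNB5 and RGS9BP. The FPKM of RGS11 was 26.0, 10.7 and 7.00 times that of GPR179 in libraries 1, 2 and 3.

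LRIT3 is a leucine-rich repeat membrane protein that photoreceptors of the mouse provide to the synapse and that is needed there for TRPM1 to gather on ON bipolar dendrites. Both LRIT3 and GPR179 are genes of human congenital stationary night blindness. LRIT3 had 15.2, 10.9 and 20.4 FPKM in libraries 1, 2 and 3, from 1037, 789 and 1864 reads, with a mean of 15.5 FPKM ± 4.77 (SD, n = 3). Library 3 stood above library 2 by 1.88-fold (95% exact counting interval 1.73 to 2.04). It ranked in place 3 of the 7 measured leucine-rich repeat genes of synapses, while 8 of the 15 listed were not analysed. The related LRIT1 at 26.4 FPKM ± 3.68 and ELFN1, a protein of rod terminals that binds mGluR6, at 36.2 FPKM ± 7.76 were apart from LRIT3 and higher, by 0.76 ± 0.30 and 1.19 ± 0.13 on the log2 scale. ELFN1 had 37.5, 27.9 and 43.3 FPKM, so that the same library was low and the same library high as for LRIT3. LRRTM1, LRRTM2, LRRTM3 and FLRT3, with means from 1.13 to 4.61 FPKM, were apart and lower.

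PRKCA, protein kinase C alpha, is the classical marker of rod bipolar cells, though vessels and other cells express it too. PRKCA had 18.3, 8.80 and 20.3 FPKM in libraries 1, 2 and 3, from 1466, 751 and 2180 reads. Library 2 was low and libraries 1 and 3 were close, with library 3 above library 2 by 2.31-fold (95% exact counting interval 2.12 to 2.51), and the mean was 15.8 FPKM ± 6.14 (SD, n = 3). Its log2 SD of 0.61 was the widest of the 8 and exceeded that of 98.1% of those 9599 genes. LRIT3, ELFN1 and RGS7BP, at 5.77, 4.05 and 5.95 FPKM, had the same order of libraries as PRKCA. PRKCE, RGS9 and CACNB2 had it too, and the share of all genes with this order was not counted. GNG13 and PCP2 did not have this order, and were highest in library 2. The summed levels of the rod, cone, Müller glia, amacrine, horizontal and ganglion cell lists were all highest in library 2. So was the summed FPKM of all listed genes, at 329947, 339882 and 298958 in libraries 1, 2 and 3. By median deviation of genes from their mean over the 3 libraries, only the rod and ganglion cell lists were highest there. That of the horizontal cell list was lowest there, at -0.08 on the log2(FPKM + 1) scale.

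Among the 9 protein kinase C genes, all measured, PRKCA ranked in place 3. The atypical PRKCZ had 56.0 FPKM ± 5.16 and was apart and higher, by 1.84 ± 0.73 on the log2 scale. PRKCQ at 19.4 FPKM ± 3.76 and PRKCB at 14.3 FPKM ± 2.77 (SD, n = 3 for each) were not apart from PRKCA, though PRKCB was apart and lower without replicate 2. PRKCB, a conventional kinase like PRKCA, had 11.1, 16.2 and 15.5 FPKM, and it was the lower of the pair in libraries 1 and 3 and the higher in library 2. The other 5 genes were apart and lower, with means of 0.621 to 7.43 FPKM. The nearest of these, PRKCE, was not apart without replicate 1, without replicate 3 or with the length trend removed.

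Calcium-binding proteins of bipolar cells were represented in both sets. CABP5 resembles calmodulin, binds voltage-gated calcium channels and is found in rod bipolar and some cone bipolar cells of the mouse. It had 168, 237 and 203 FPKM in libraries 1, 2 and 3, from 7347, 10992 and 11889 reads. Its mean was 203 FPKM ± 34.2 (SD, n = 3), and in FPKM as deposited it varied least among the upper 4. The extremes, libraries 2 and 1, differed by 1.41-fold (95% exact counting interval 1.36 to 1.45). With the length trend removed PCP2 varied less than CABP5, with log2 SDs of 0.19 and 0.34. CABP5 was the highest of the measured CaBP genes. CABP4, the photoreceptor form, had 74.8 FPKM ± 11.7, CABP1 51.7 FPKM ± 5.94 and CABP2 31.8 FPKM ± 22.0, each apart from CABP5. The excess of CABP5 was 2.68-fold over CABP4 and 3.85-fold over CABP1. CABP5 was not apart from CALM3, a calmodulin gene, at 241 FPKM ± 45.1 (SD, n = 3).

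SCGN, secretagogin, marks subsets of cone bipolar cells in mammals. It had 16.0, 19.3 and 15.0 FPKM in libraries 1, 2 and 3, from 803, 1027 and 1008 reads, and with a mean of 16.8 FPKM ± 2.22 (SD, n = 3) it was the steadiest of the 8. Libraries 1 and 3 differed by less than counting error, at a ratio of 1.07 (95% exact interval 0.971 to 1.17). CABP5 exceeded SCGN by 10.5, 12.3 and 13.5-fold in the 3 libraries. SCGN was in place 9 of the 10 measured EF-hand calcium sensors and buffers. Calretinin CALB2 at 432 FPKM ± 61.9 and calbindin CALB1 at 50.6 FPKM ± 9.47, both used by amacrine or horizontal cells, were apart and higher, and HPCAL4 at 8.31 FPKM ± 1.30 was apart and lower. In the assembly SCGN lies wholly within the span of SLC17A1, a gene not analysed here.

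**Figure D2:**
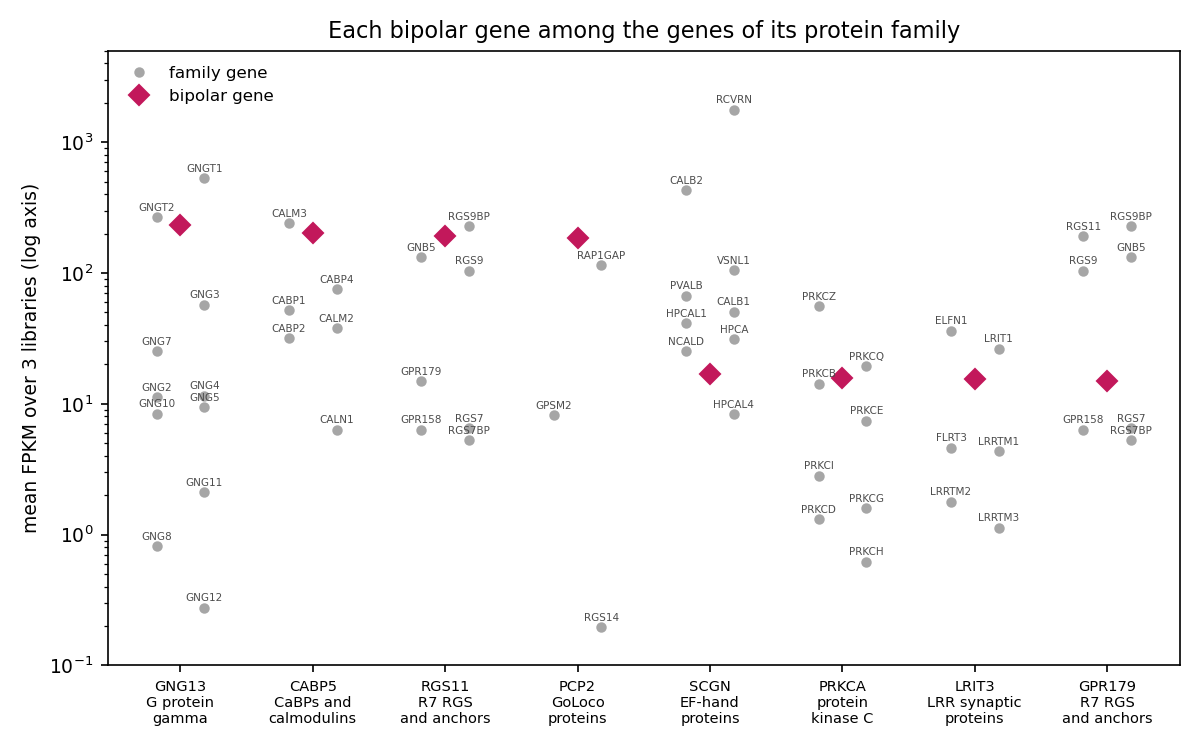
Mean FPKM over 3 libraries (log axis) of each of the 8 genes (diamonds) and of other measured genes of its family (grey points, with symbols). PCP2 is the highest of the measured genes of its family. GNG13, CABP5 and RGS11 lie within reach of the top of theirs, and SCGN lies near the bottom of the EF-hand genes.

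Over all families 58 comparisons of one of the 8 genes with a relative were made. The gene of the set of 8 was apart and higher in 34, apart and lower in 14 and not apart in 10. The pair of RGS11 and GPR179 enters from both sides, in the 34 and in the 14. No such counts were made for other sets of genes, so these describe the chosen lists only. In 53 of the 58 comparisons all 3 libraries gave the same order. The 4 upper genes were apart and lower than none of their relatives, whereas SCGN was apart and lower than 7 of 9.

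Differences between libraries were common in these genes. Between the highest and the lowest library, 6 of the 8 genes were at least 1.5-fold apart on the scale of FPKM + 1, against 19.9% of the 9599 genes that averaged 1 FPKM or more. CABP5 and SCGN were the exceptions. The count between highest and lowest library was chosen after the data were seen, unlike the counts for pairs of libraries. Between libraries 1 and 2, 2 of 8 genes passed 1.5-fold (RGS11 and PRKCA), against 9.24% of the background. Between libraries 1 and 3, 3 genes passed (RGS11, PCP2 and GPR179), against 12.3%. Between libraries 2 and 3, 4 genes passed (GNG13, PCP2, LRIT3 and PRKCA), against 7.42%. With 1 library on each side these counts carry no test.

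The genes did not move together. RGS11 alone was highest in library 1, GNG13, CABP5, PCP2 and SCGN in library 2, and PRKCA, LRIT3 and GPR179 in library 3, against 45.3%, 29% and 25.7% of the background genes that were highest in libraries 1, 2 and 3. The lowest values of GNG13, PCP2, RGS11 and SCGN were in library 3, as for 43.3% of the background. Part of this ran with gene length. The 477 genes of 45 to 695 bases, the class of GNG13 and PCP2, had median deviations from the mean of the 3 libraries of 0.28, 0.06 and -0.37 in libraries 1, 2 and 3 on the log2(FPKM + 1) scale. PCP2 itself deviated by 0.19, 0.29 and -0.48. The 480 genes of 5179 to 25714 bases, the class of GPR179, had medians of -0.10, -0.07 and 0.18, and GPR179 deviated by -0.37, 0.03 and 0.34.

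With the median deviation of genes of like length removed, the log2 SD of PCP2 went from 0.42 to 0.19 and that of GPR179 from 0.36 to 0.24. Neither was then 1.5-fold apart between any libraries. The SD of RGS11 went from 0.58 to 0.53, that of PRKCA stayed at 0.61 and that of LRIT3 went from 0.43 to 0.47, since genes of their lengths deviated by less than 0.1 in every library. GNG13 went from 0.48 to 0.37 and CABP5 from 0.24 to 0.34, so that CABP5 then passed 1.5-fold between libraries 1 and 3. Over the 8 genes the median SD was 0.42 before and 0.36 after, against 0.19 and 0.16 for all 9599 genes.

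**Figure D3:**
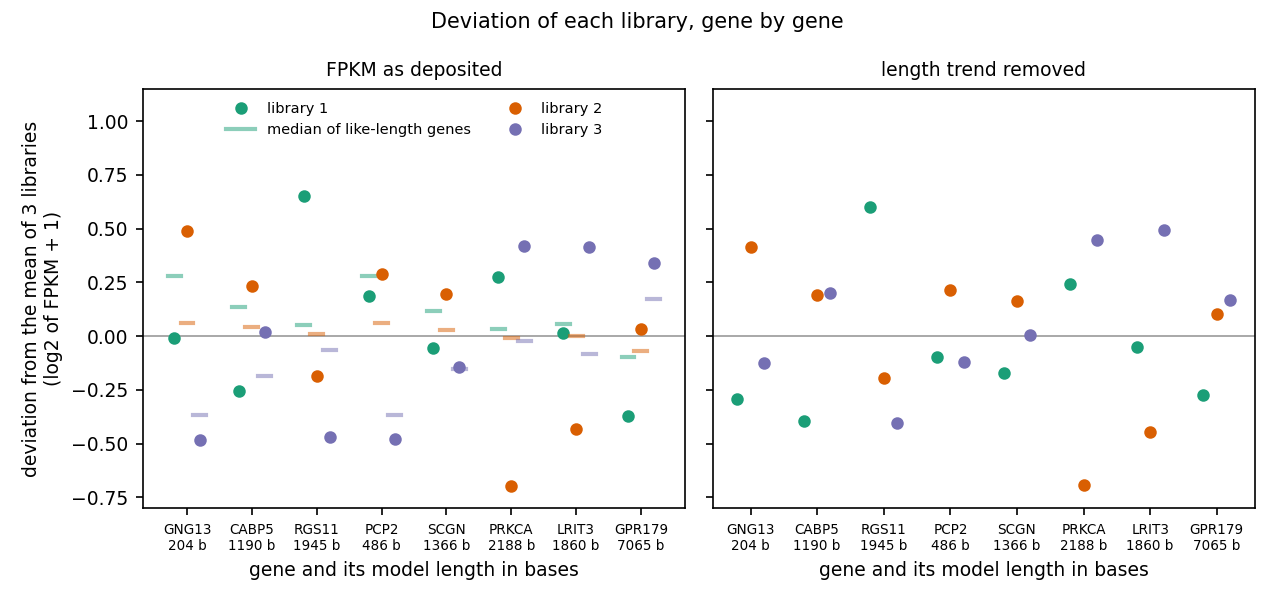
Deviation of each library from the mean of the 3 (log2 of FPKM + 1) for each gene, with short bars for the median deviation of genes of like length (left) and after these medians were removed (right). PCP2 and GPR179 come closer together on the right, while RGS11 stays high in library 1 and PRKCA low in library 2.

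Other genes of the ON cascade were also detected. Of the 20 genes listed for the cascade 15 were measured, of which 6 are among the 8 genes, and the receptor gene GRM6, the channel gene TRPM1, NYX, ELFN2 and CACNA2D4 were not analysed here. All 15 averaged 1 FPKM or more, 13 reached 10 FPKM and 6 reached 100 FPKM, against 70.7%, 38.4% and 3.81% of the 13574 genes. Those at 100 FPKM were GNG13, RGS11 and PCP2 of the set of 8, and GNAO1, GNB3 and GNB5. The median of the 15 was 36.2 FPKM. On the photoreceptor side of the synapse the calcium channel subunit CACNA1F stood at 80.1 FPKM ± 7.63 and CACNB2 at 25.2 FPKM ± 1.56 (SD, n = 3). Of the 9 cascade genes outside the set of 8, ELFN1 alone was 1.5-fold apart between its highest and lowest library. Among the 9599 genes averaging 1 FPKM or more the share was 19.9%.

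Transcription factors of bipolar cells varied less. OTX2, which photoreceptors share, had 83.7 FPKM ± 7.50, and SIX3, which other inner retinal cells share, 64.0 FPKM ± 3.39 (SD, n = 3 for each). All 14 measured factors of the 18 listed averaged 1 FPKM or more, as did 70.7% of the 13574 genes. The median of the factors was 12.4 FPKM. None of the 14 was 1.5-fold apart between its highest and lowest library. Of the 8 signalling genes 6 were, and of the 9599 genes averaging 1 FPKM or more 19.9%. This measure was chosen after the data were seen. The median difference between highest and lowest library was 0.25 for the factors and 0.81 for the signalling genes (log2). The summed level of the factors was 384, 386 and 394 FPKM in libraries 1, 2 and 3, while that of the 8 signalling genes was 941, 982 and 697 FPKM. With the length trend removed 1 of the 14 factors was 1.5-fold apart, as were 5 of the 8 signalling genes and 14.4% of the 9599 genes.

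**Figure D4:**
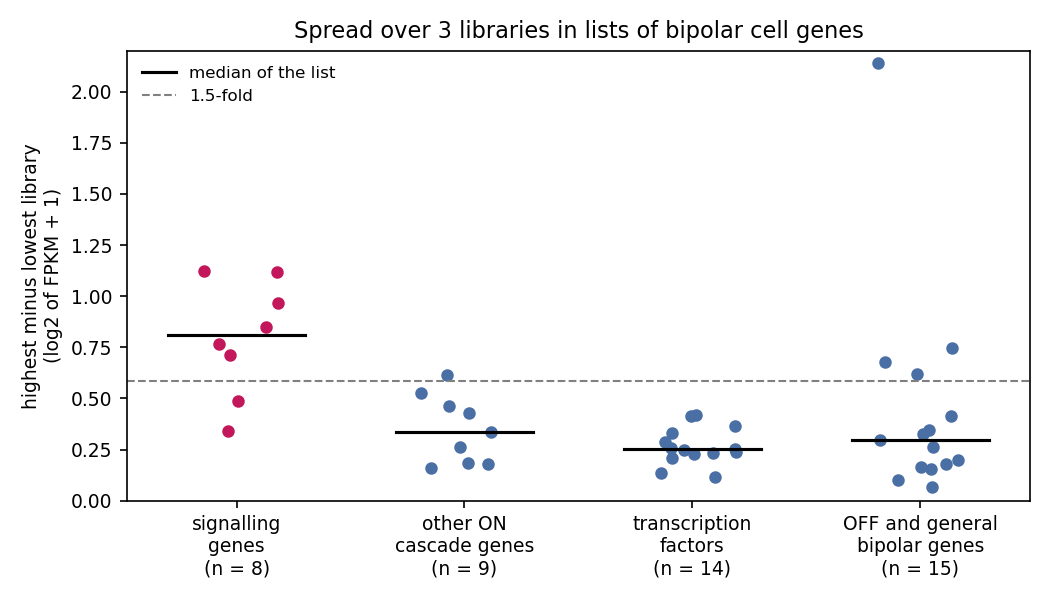
Difference between the highest and the lowest of 3 libraries (log2 of FPKM + 1) for each gene of 4 lists of bipolar cell genes, with the list median as a bar and 1.5-fold as a dashed line. The 8 signalling genes have a median of 0.81 and the 14 transcription factors one of 0.25, with no factor above the line.

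Genes with the most similar values were sought outside the set by the Euclidean distance of log2(FPKM + 1) over the 3 libraries. The nearest to CABP5 was HSP90AB1, a cytosolic chaperone, at a distance of 0.07. The nearest to PCP2 was the ribosomal protein gene RPL32 at 0.10, and that to GNG13 was COX8A, a respiratory chain subunit, at 0.18. MRPS5 was nearest to SCGN at 0.06, CNTNAP1 to GPR179 at 0.08, UBE4A to LRIT3 at 0.14 and EPAS1 to PRKCA at 0.16. A distance over 3 libraries is a loose measure: 705 genes lay within 0.5 of SCGN and 222 of GPR179, but 10 of RGS11 and 31 of PRKCA.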

How the data were processed

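Poly(A) RNA of 3 pooled bovine retina libraries was measured. Per the labels' protocols, random primers served to copy 400 to 450 ng of poly(A) RNA, and fragments measured about 200 bp. CASAVA 1.8.1, GSNAP and HTSeq appear in the submitters' processing notes. Their settings, the genome build, annotation and strand are not given there. The authors deposited FPKM (named in the file headers) and a gene length for 13574 symbols.

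Reads were recovered as FPKM × length, whole within 0.1 read in 100% of values of up to 2000 reads. Intervals of ratios and floors (3 reads) cover counting error only. With 1 group there was no contrast for a count model. Differences used log2(FPKM + 1), which understates the change of low genes. The length trend was removed as the median deviation in 20 length bins of the 9599 genes averaging 1 FPKM or more. The functions were tested on simulated data. Named genes were the 8 genes, genes of their family and cascade lists, the 3 highest of other bipolar lists, overlapping genes and the nearest gene to each; GNG3, RDH5, TYR, XIST and the neighbours FAM234A and ARHGDIG were chosen after their values were seen. The 8 genes and all lists were chosen with earlier results of these data known. All 8 symbols matched the ARS-UCD2.0 gene table, used for names and neighbours only, since the authors' build is not given. A few genes covered by the rule are not reported here, though they count in lists and medians. No sequences are shown. Python 3.11.15, pandas 2.3.3, scipy 1.17.1 and matplotlib 3.10.9 were used.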

Additional observations from a re-analysis of the deposited data

How the results depend on the processing

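Levels of the 8 genes and their summed level moved by less than 1 SD under median ratio scaling, equal sums and removal of the length trend. The scaling factors lay from 0.966 to 1.05 for median ratios and from 0.926 to 1.05 for equal sums. The removed length deviations nearly cancel over the libraries. A mean over the 3 libraries could therefore move little, so this says little about how robust the levels are. With each library left out in turn, the mean of RGS11 ranged from 145 to 223 FPKM, of GNG13 from 191 to 267, of PCP2 from 166 to 212, of CABP5 from 186 to 220, of PRKCA from 13.5 to 19.3, of LRIT3 from 13.0 to 17.8, of GPR179 from 13.0 to 16.8 and of SCGN from 15.5 to 17.7. The count of apart neighbours was 1 under each alternative run, and apart family comparisons numbered 48 of 58, or 47 to 49 under the alternatives, with 0 reversed. Equal sums shifted all genes by 0.11 (log2) in library 3. With a fold of 2 in place of 1.5, 0, 1 and 1 genes were apart between libraries 1 and 2, 1 and 3, and 2 and 3, against 1.95%, 1.95% and 0.594% of the background. With the length trend removed 2 genes (LRIT3 and PRKCA) were apart between libraries 2 and 3, in place of 4, against 5.92%. The count of genes 1.5-fold apart between highest and lowest library was 6, against 19.9% of the background. This count, like its alternatives, was chosen after seeing the data. It was 6 with pseudocount 0.1 (26.9% of the background) and with median ratio scaling (18.8%). It was 5 with equal sums (21.5%) and with the length trend removed (14.4%). Fewer libraries are compared where 1 is left out. The count was then 4 without replicate 1 (7.42%), 3 without replicate 2 (12.3%) and 2 without replicate 3 (9.24%). No paired analysis was possible because there is 1 group. Depth limited none of the 8 levels, since the fewest reads were 751.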

Other observations

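Genes of OFF bipolar cells and of bipolar cells in general were also present. Of 25 such genes listed 15 were measured, with a median of 14.7 FPKM. All 15 averaged 1 FPKM or more, as did 70.7% of the 13574 genes. PCP4, a calmodulin regulator also found in other neurons, had 377, 326 and 245 FPKM in libraries 1, 2 and 3. The kainate receptor gene GRIK1, used by OFF bipolar cells to read glutamate, had 13.1, 18.7 and 21.5 FPKM, while GRIK5 was steady at 17.1, 17.9 and 17.9 FPKM; both were chosen after their values were seen. Of the 15 genes 4 were 1.5-fold apart between highest and lowest library, against 19.9% of the background. CABP2, a relative of CABP5, had the largest such difference of the 15, at 28.2, 55.4 and 11.8 FPKM from 821, 1719 and 460 reads. Like GNG13 and PCP2 it was highest in library 2 and lowest in library 3. Of the 9599 genes, 29% were highest in library 2 and 43.3% lowest in library 3. Genes of 696 to 909 bases, the class of CABP2, had median deviations of 0.21, 0.08 and -0.30 in libraries 1, 2 and 3 (log2).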
